A study of Mus musculus with 2 samples.

Results

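The set described here is the expressed Zfp genes of sorted spleen CD8+ regulatory T cells. A gene was a member when its symbol was Zfp followed by a number and when it reached 5 CPM, the read count scaled to the library's total of gene counts, in either of 2 RNA-seq libraries. Of 366 such symbols in the files, 265 were members, among 9954 genes of any name at the same minimum. Members were thus chosen by their measured CPM in these same libraries, and their levels are given as a description. Cells of 1 library came from mice labelled Tgfbr2-/-Eomes-/- (called DKO), and those of the other from mice labelled WT. The mice of both groups were naive and 3 months old. Tgfbr2 codes for a receptor chain that binds TGF-beta, and Eomes for a transcription factor of T cells and NK cells. The labels give neither the number of mice per library nor the means and cell type of the deletions.

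Zfp is the mouse prefix for zinc finger proteins, in which short zinc-binding loops contact DNA or RNA. Many carry a KRAB box, which recruits the corepressor Trim28 and with it the histone methyltransferase Setdb1, and these KRAB proteins are known for silencing retroelements. Genes of KRAB proteins multiplied by tandem duplication and lie in clusters. Others of the prefix are unrelated by function: Zfp36, Zfp36l1 and Zfp36l2 have fingers of another type and promote decay of mRNAs with AU-rich elements, including cytokine mRNAs of T cells.

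Gene counts summed to 19661212 in the DKO library and 22307065 in the WT library. Eomes had 3589 counts in the DKO library and 10292 in the WT library, and Tgfbr2 had 4882 in the DKO library and 7825 in the WT library. These counts are per gene and do not show which exons the reads came from. Each genotype had a single library, so differences have no replicate check and no p-value is given. Each interval below is an exact Clopper-Pearson 95% interval that covers counting error only, and compares these libraries, not the genotypes. In bulk RNA, fewer cells of a type and less RNA per cell cannot be told apart. The T cell markers Cd3d, Cd3e, Cd3g, Cd8a, Cd8b1, Cd2, Cd5 and Il2rb summed to 7428 CPM in the DKO library and 8313 CPM in the WT library. Levels here and below are CPM scaled by TMM factors, which correct for the makeup of the libraries. Markers of other cell types were higher in the DKO library in most lists. Neutrophil markers summed to 2292 CPM in DKO and 540 CPM in WT, with 7 of 7 genes above a ratio of 1. Dendritic cell markers summed to 3175 CPM in DKO and 1133 CPM in WT (8 of 8), and macrophage and monocyte markers to 1480 CPM in DKO and 773 CPM in WT (6 of 7). CD4+ and FOXP3+ T cell markers summed to 278 CPM in DKO and 110 CPM in WT (9 of 9), and NK markers, Eomes among them, to 1819 CPM in DKO and 1346 CPM in WT (6 of 8). Gzma held 785 CPM of the NK sum in DKO and 160 CPM in WT, while Eomes and Klre1 were lower in DKO. Plasma cell markers summed to 508 CPM in DKO and 285 CPM in WT (3 of 5), and erythroid and platelet markers to 32.6 CPM in DKO and 16.3 CPM in WT (5 of 7). B cell markers summed to 96.2 CPM in DKO and 137 CPM in WT, with 7 of 9 above a ratio of 1. Of these markers only Hbb-b1 and Hba-a1 were at 0 in both libraries. Markers of cycling cells summed to 356 CPM in DKO and 101 CPM in WT (8 of 8). The part of other cells or of cycling in the Zfp values was not tested.

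A DNA sequence shared by many Zfp promoters is shown first, because the printed copies let the cluster members be compared letter by letter. The motif searched was ACTACA, any 2 bases and TCCC, called here the ZFP143 motif after the activator ZFP143, itself encoded by a member. It was searched on both strands of RefSeq promoters (GRCm38.p6), which run from 250 bases before to 50 bases after a gene's start. Of the 220 members with a promoter entry, 42 (19.1%) held the motif. Of all 7250 genes at the same minimum with an entry, 388 (5.35%) held it, and of all 27025 genes in the promoter table, 563 (2.08%). The share was 26.0% in members with a KRAB box (33 of 127) and 9.78% in members without one (9 of 92). The 43 matches had a median first base 51 bases before the start, and 36 lay within 100 bases before it. No match overlapped one of the other motifs searched. By chromosome, 16 of the 42 members lay on chromosome 13 and 16 on chromosome 7. Tandem copies share their sequence by descent, so these promoters are not independent.

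In the row of 10 neighbouring members from Zfp595 to Zfp748 on chromosome 13, 8 of the 9 with an entry held the motif. Each line gives the motif in capitals with 9 bases on each side, read along the motif.
Zfp595, chr13:67332591-67332620 (plus strand): gtggtagggACTACATTTCCCacaagtcag
Zfp953, chr13:67360627-67360656 (plus strand): ggcatccggACTACATTTCCCacaaatcag
Zfp456, chr13:67375812-67375841 (plus strand): gtggtgcggACTACATCTCCCagaagtctg
Zfp429, chr13:67399818-67399847 (plus strand): gcggtgcggACTACATCTCCCagaagtctg
Zfp874a, chr13:67451637-67451666 (plus strand): gtgctgcagACTACATTTCCCacaagtctg
Zfp874b, chr13:67484268-67484297 (plus strand): gtgctacagACTACATTTCCCacaagtctg
Zfp58, chr13:67500533-67500562 (plus strand): agtggccagACTACAATTCCCacaagtctg
Zfp748, chr13:67553158-67553187 (plus strand): caacggaagACTACACTTCCCacaagtctg
In the row of 12 neighbouring members from Zfp790 to Zfp146 on chromosome 7, 8 of the 11 with an entry held it, and 5 of these are shown as representatives.
Zfp790, chr7:29815959-29815988 (minus strand): cggccttgaACTACATTTCCCagaatacct
Zfp420, chr7:29859911-29859940 (plus strand): agccattggACTACATTTCCCagagccacc
Zfp74, chr7:29954096-29954125 (plus strand): ttgctttgaACTACATTTCCCagagccctt
Zfp14, chr7:30051390-30051419 (minus strand): ccaccatggACTACATTTCCCacaggcctc
Zfp566, chr7:30090566-30090595 (minus strand): ctcggactgACTACATTTCCCagagggctc

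Members with the motif had ratios on both sides of 1. The median log2 ratio (DKO over WT) was -0.10 in the 42 members with the motif and -0.01 in the 178 without it. With the motif, 0 members were at least 2-fold higher and 2 lower, and without it 6 were higher and 5 lower. For comparison, 7.47% of all genes at the same minimum were higher and 1.47% lower, with a median log2 ratio of -0.02. The groups also differed in abundance: the median of the mean CPM was 13.96 with the motif and 22.39 without it. No test was made, since genes are not replicates. Zfp143 itself had 859 counts in the DKO library and 1304 in the WT library, or 43.0 and 59.4 CPM, which is 1.38-fold lower (interval 1.27 to 1.51). A match is a description of letters and does not show binding by ZFP143 or by another factor.

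Motifs of the factors on the deleted pathways were rare in the same windows. The T-box site AGGTGTGA was found in 5 of 220 member promoters (2.27%), against 0.979% of genes at the same minimum. These were the promoters of Zfp677, Zfp688, Zfp708, Zfp827 and Zfp956. The SMAD palindrome GTCTAGAC was found in 1 (0.455%), against 0.276%. That 1 promoter was of Zfp52, which lies in the same row as Zfp677, of 5 neighbouring members on chromosome 17. Both are shown with their match in capitals.
Zfp677, chr17:21383498-21383797 (plus strand): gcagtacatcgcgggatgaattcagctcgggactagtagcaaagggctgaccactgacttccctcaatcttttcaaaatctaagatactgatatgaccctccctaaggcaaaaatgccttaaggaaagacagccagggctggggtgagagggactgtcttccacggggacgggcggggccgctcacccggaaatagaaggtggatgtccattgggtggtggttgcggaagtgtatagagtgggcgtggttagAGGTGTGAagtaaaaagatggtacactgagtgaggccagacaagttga
Zfp52, chr17:21535289-21535588 (plus strand): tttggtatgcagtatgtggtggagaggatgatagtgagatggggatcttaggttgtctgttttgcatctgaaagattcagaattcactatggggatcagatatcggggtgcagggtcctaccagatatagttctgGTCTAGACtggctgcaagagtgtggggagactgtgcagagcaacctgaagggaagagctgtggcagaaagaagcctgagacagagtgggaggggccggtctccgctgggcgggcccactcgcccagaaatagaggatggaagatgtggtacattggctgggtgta
Zfp677 had 383 counts in the DKO library and 246 in the WT library, or 19.2 and 11.2 CPM. Zfp52 had 664 counts in the DKO library and 374 in the WT library, or 33.2 and 17.0 CPM, a ratio of 1.95 (1.71 to 2.22). These were the 2 highest ratios of their row, and neither reached 2-fold, although Zfp52 did so under scaling by total counts. The other members with the T-box site lay on both sides of 1. Zfp688 had a log2 ratio of 0.38, and Zfp708, Zfp827 and Zfp956 had log2 ratios of -0.76, -0.55 and -0.20. A link of these sites with the ratios was not tested. Exons of Zfp52 overlap those of 9330136K24Rik on the opposite strand.

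Most members had similar levels in both libraries. Of the 265 members, 220 (83.0%) lay within 1.5-fold, against 80.4% of the 9954 genes. A member was counted as higher or lower when it was at least 2-fold apart and its interval left out a ratio of 1. By this rule 7 members (2.64%) were higher and 9 (3.40%) were lower in the DKO library, and 249 were neither. Among all genes at the same minimum, 7.47% were higher and 1.47% lower. The split depended on the scaling. It was 9 higher and 8 lower with total counts (all genes 7.94% and 1.24%), and 3 higher and 17 lower with the trend of ratio with abundance subtracted (all genes 5.45% and 2.74%). The members' median log2 ratio was -0.04 with quartiles of -0.29 and 0.27, and that of all genes -0.02 with quartiles of -0.25 and 0.27. With libraries scaled by total counts in place of TMM factors, both medians turned positive, to 0.01 and 0.03. At a limit of 1.5-fold, 23 members were higher and 22 lower, against 13.3% and 6.31% of all genes. At 4-fold, 0 were higher and 1 lower (Zfp647), against 1.51% and 0.171%. All members together held 10009 CPM in the DKO library and 10616 CPM in the WT library. Their CPM in the 2 libraries had a Spearman correlation of 0.948 over 265 genes.

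**Figure D1:**
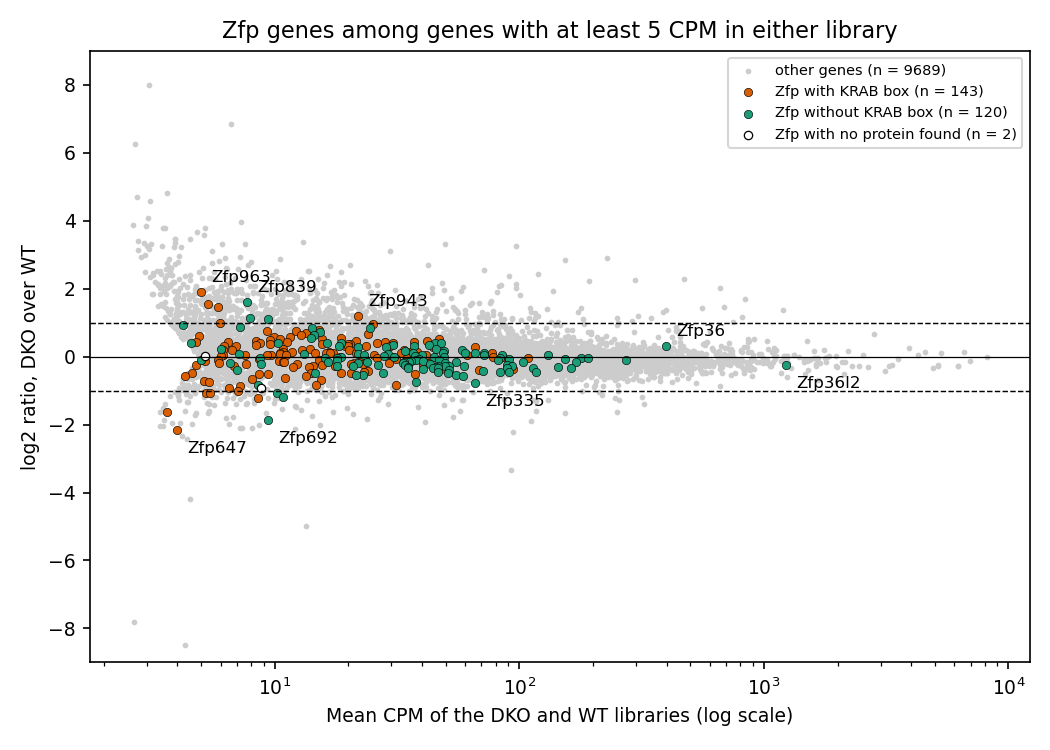
Log2 ratio of DKO over WT against mean CPM of both libraries (log axis), 1 point per gene, with dashed lines at 2-fold. The Zfp genes (coloured) past 2-fold lie at low CPM, and those at 100 CPM or more lie between -0.45 and 0.30.

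These shares differed with the number of reads per gene. Of the 62 members with a mean under 10 CPM, 9.68% were higher and 11.3% lower, against 29.2% and 5.74% of 1324 genes in that range. The median log2 ratio in that range was 0.03 in members and 0.45 in all genes. From 10 to 20 CPM, 0 of 61 members were higher and 2 lower, against 11.1% and 2.19% of 1413 genes. From 20 to 50 CPM, 1 of 97 members was higher and 0 lower, against 4.696% and 0.488% of 2662 genes. From 50 to 100 CPM, 0 of 31 members met either limit, against 1.89% higher and 0.507% lower of 2168 genes. At 100 CPM and over, 0 of 14 met either limit, against 1.47% and 0.628% of 2387 genes. At such shares, 0 among so few members says nothing about the Zfp genes. The members' ratio had a Spearman correlation of -0.13 with mean CPM over 265 genes, and that of all genes -0.22 over 9954. The points share both libraries.

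The minimum itself decided part of the list. Of the members, 241 reached 5 CPM in both libraries, 11 in the DKO library only and 13 in the WT library only. The genes that reached it in 1 library only had to be lower in the other, and they include 5 of the 7 higher and 6 of the 9 lower genes. Just inside the minimum were Zfp455 at 3.51 in the DKO library and 5.02 in the WT library, Zfp438 at 4.93 and 5.07, and Zfp867 at 4.42 and 5.07 CPM, here without TMM factors. Just outside were Zfp119a at 4.88 and 3.77, Zfp951 at 4.83 and 2.20, and Zfp580 at 4.73 and 3.94. Of the 101 Zfp symbols left out, 39 were at 0 in both libraries.

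The higher members had few reads in the WT library. Zfp963, a KRAB gene that shares exons with Gm20422, had 158 counts in the DKO library and 46 in the WT library, or 7.90 and 2.10 CPM, which is 3.77-fold higher (2.70 to 5.35). Zfp839 had 232 and 84 counts in the DKO and WT libraries, or 11.6 and 3.83 CPM, which is 3.03-fold higher (2.35 to 3.94). Zfp943 had the most reads of the group, with 609 counts in the DKO library and 293 in the WT library, or 30.5 and 13.4 CPM. It was 2.28-fold higher (1.98 to 2.63) and the 1 higher member above 20 CPM. The KRAB genes Zfp617 (159 counts in DKO, 59 in WT) and Zfp937 (172 in DKO, 68 in WT) were 2.96-fold and 2.78-fold higher. Both are near-copies of other genes: 56.0% and 68.5% of the 50-base stretches of their transcripts were found in no gene at another place, so their counts are uncertain. Zfp467, known in mice from the choice between fat and bone cell fates, had 219 counts in the DKO library and 108 in the WT library and was 2.22-fold higher (1.76 to 2.83). Zfp167, now named Zkscan7, had 257 and 131 counts in the DKO and WT libraries and was 2.15-fold higher (1.74 to 2.68). Its exons overlap those of A530083I20Rik on the opposite strand, and reads of the pair cannot be told apart if strand was not used in counting. Of the 7 higher members, a KRAB box was found in 4, and none was found in Zfp167. Zfp167, Zfp467, Zfp617 and Zfp937 missed the limit when the trend of ratio with abundance was subtracted. Next in order were Zfp14 at 1.97-fold (1.51 to 2.59), Zfp52 as given above and Zfp518b at 1.90-fold (1.39 to 2.63), below the limit. Zfp14 passed it under scaling by total counts or upper-quartile factors.

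The lower members included the widest difference among the members, that of Zfp647. Zfp647, a KRAB gene, had 29 counts in the DKO library and 143 in the WT library, or 1.45 and 6.52 CPM, which is 4.49-fold lower (3.00 to 6.95). Zfp692 had 81 counts in the DKO library and 324 in the WT library, or 4.05 and 14.8 CPM, which is 3.65-fold lower (2.85 to 4.71). Its promoter held the ZFP143 motif. Zfp931 had 35 and 121 counts in the DKO and WT libraries and was 3.15-fold lower (2.15 to 4.73). Zfp202, whose protein is a repressor with SCAN and KRAB domains, had 102 counts in the DKO library and 263 in the WT library, or 5.10 and 11.99 CPM. It was 2.35-fold lower (1.86 to 2.98). Zfp579, with 131 counts in DKO and 331 in WT, was 2.30-fold lower (1.88 to 2.84), and Zfp420, with 131 in DKO and 304 in WT, 2.12-fold lower (1.72 to 2.62). The KRAB genes Zfp446, Zfp932 and Zfp825 lay near the limit, at 2.11-fold, 2.09-fold and 2.03-fold lower. Zfp825 missed the limit under scaling by total counts or upper-quartile factors and with a prior count of 5. Zfp931, Zfp932 and Zfp825 are near-copies, with 47.4%, 44.5% and 71.3% of their 50-base stretches unique, and their counts are uncertain. Of the 9 lower members, 6 had a KRAB box. Zfp938, next in order, was 1.92-fold lower (1.48 to 2.49).

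**Figure D2:**
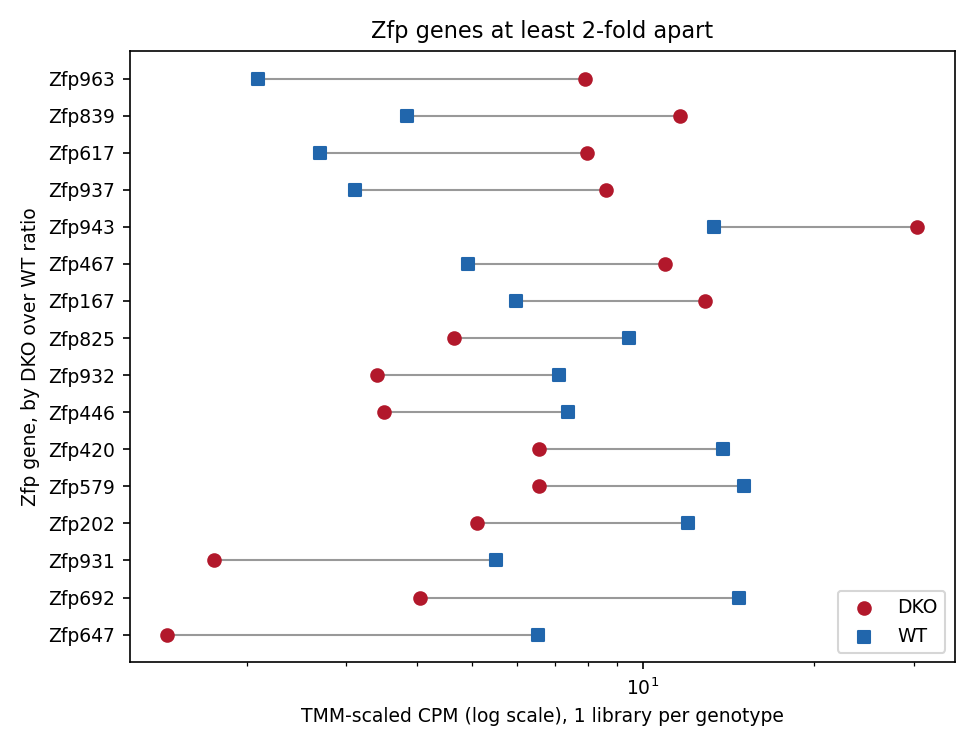
TMM-scaled CPM (log axis) in the DKO library (circles) and the WT library (squares) of the 16 Zfp genes at least 2-fold apart, 1 library per genotype. All but Zfp943 lie below 20 CPM in both libraries.

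The RNA-binding Zfp36 family includes the 2 members with the most reads. Their CPM is not per transcript length. Zfp36l2 had 22542 counts in the DKO library and 29295 in the WT library, or 1127 and 1335 CPM, which is 1.18-fold lower (1.16 to 1.21). Zfp36, which encodes tristetraprolin, had 8810 counts in the DKO library and 7826 in the WT library, or 441 and 357 CPM, which is 1.24-fold higher (1.20 to 1.27). Zfp36l1 had 3199 and 3947 counts in the DKO and WT libraries, or 160 and 180 CPM, which is 1.12-fold lower (1.07 to 1.18). The 3 paralogs thus lay on both sides of 1, each below the 2-fold limit. Exons of each overlap a gene on the opposite strand, as do exons of 60 members in all, among them Zfp106, Zfp143, Zfp384 and Zfp687, and reads of such pairs cannot be told apart if strand was not used in counting.

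Partners and known targets of the Zfp36 family were read from lists of genes. Of 16 genes for deadenylation and mRNA decay, 0 were past 2-fold in either direction, and their median log2 ratio was -0.21. The ratios farthest from 1 were those of Cnot7, a deadenylase of the CCR4-NOT complex (log2 ratio -0.33), Dcp1a, a decapping factor (-0.32), and Cnot3 (-0.32). Of all genes at the same minimum, 7.47% were higher and 1.47% lower, with a median log2 ratio of -0.02. Of 5 AU-rich target genes at the minimum, 1 was higher and 0 lower, and the median was 0.23. Ifng, which encodes interferon gamma, was that gene, with 581 counts in the DKO library and 101 in the WT library, or 29.1 and 4.60 CPM. Tnf had 413 counts in the DKO library and 235 in the WT library, at a ratio of 1.93 (1.64 to 2.27). Ier3 had a log2 ratio of 0.23. Below the minimum, Csf2 had 13 counts in the DKO library and 37 in the WT library. Il2 had 8 counts in DKO and 0 in WT, and Il10 had 14 in DKO and 0 in WT.

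Members with roles in RNA processing and the ribosome had a median log2 ratio of -0.09, with 0 of 8 past 2-fold. For all genes at the same minimum the shares were 7.47% higher and 1.47% lower. At such shares, 0 among so few members says nothing about a role, here and in the groups below. Zfp385a, an RNA-binding partner of p53, had 18.2 CPM in the DKO library and 10.1 CPM in the WT library, at 1.81-fold (1.52 to 2.15). Zfp598, the ubiquitin ligase of collided ribosomes, had 76.5 CPM in the DKO library and 104 CPM in the WT library and was 1.36-fold lower (1.28 to 1.46). Zfp106 had 145 and 181 CPM in the DKO and WT libraries and was 1.25-fold lower (1.19 to 1.31). Zfp346, a binder of double-stranded RNA, had a log2 ratio of 0.29 and Zfp259, now named Zpr1, one of -0.25. Zfp622, of large ribosomal subunit maturation, Zfp830 and Zfp326 had ratios of -0.06, -0.12 and 0.07 on the log2 scale, with intervals that included 1.

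Among members with a role in lymphocytes, Zfp335 stood lowest. This gene, needed in mice for maturation of naive T cells, had 965 counts in the DKO library and 1829 in the WT library, or 48.3 and 83.4 CPM. It was 1.73-fold lower (1.597 to 1.87), below the 2-fold limit. Its exons overlap those of Pcif1 and Zfp335os on the opposite strand. Zfp91, a ubiquitin ligase gene of non-canonical NF-kappaB signalling, had 89.2 CPM in the DKO library and 93.0 CPM in the WT library. Zfp831 had 86.2 and 84.3 CPM in the DKO and WT libraries, and Zfp318, which controls IgD splicing in B cells, 62.2 and 57.5 CPM. Zfp608, a repressor of the Rag genes in mouse thymocytes, had 8.15 CPM in the DKO library and 9.44 CPM in the WT library. Zfp609, which counteracts it, had 23.7 and 22.7 CPM in the DKO and WT libraries. None of these 6 was past 2-fold, and their median log2 ratio was -0.01, against 7.47% higher and 1.47% lower of all genes.

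Members of chromatin complexes had a median log2 ratio of -0.27, with 0 of 7 past 2-fold, against 7.47% higher and 1.47% lower of all genes. Zfp592 and Zfp687, whose proteins form a complex with ZMYND8, lay on opposite sides of 1. Zfp592 had 128 CPM in the DKO library and 159 CPM in the WT library and was 1.24-fold lower (1.18 to 1.31). Zfp687 had 47.9 and 37.7 CPM in the DKO and WT libraries and was 1.27-fold higher (1.15 to 1.39). Zfp827, which binds the NuRD complex, was 1.46-fold lower (1.28 to 1.67). Zfp451, a SUMO ligase gene, and Zfp296 had log2 ratios of -0.48 and -0.27. Zfp217, of the CoREST corepressor, and Zfp644, a partner of the methyltransferases G9a and GLP, had log2 ratios of 0.06 and -0.01. Zfp618 was listed at 0 in both libraries.

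Promoter-binding members also spread around 1, with a median log2 ratio of -0.05. Of these, 0 of 8 were past 2-fold, against 7.47% higher and 1.47% lower of all genes. Besides Zfp143, Zfp148, a binder of GC-rich promoters, had 98.8 CPM in the DKO library and 135 CPM in the WT library and was 1.36-fold lower (1.29 to 1.45). Zfp384 had 54.7 and 41.4 CPM in the DKO and WT libraries and was 1.32-fold higher (1.21 to 1.45). Zfp410 is known to activate Chd4, which encodes a NuRD remodeller. Zfp410 had a log2 ratio of -0.19 and Chd4, with 517 CPM in the DKO library and 632 CPM in the WT library, one of -0.29. Zfp191 (now Zfp24), Zfp281, Zfp263 and Zfp740 had log2 ratios of 0.16, 0.10, -0.06 and -0.04. In the mitosis list, Zfp207, which carries Bub3 to the spindle, had 264 CPM in the DKO library and 280 CPM in the WT library. Zfp365 had 6.05 CPM in the DKO library and 7.98 CPM in the WT library.

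**Figure D3:**
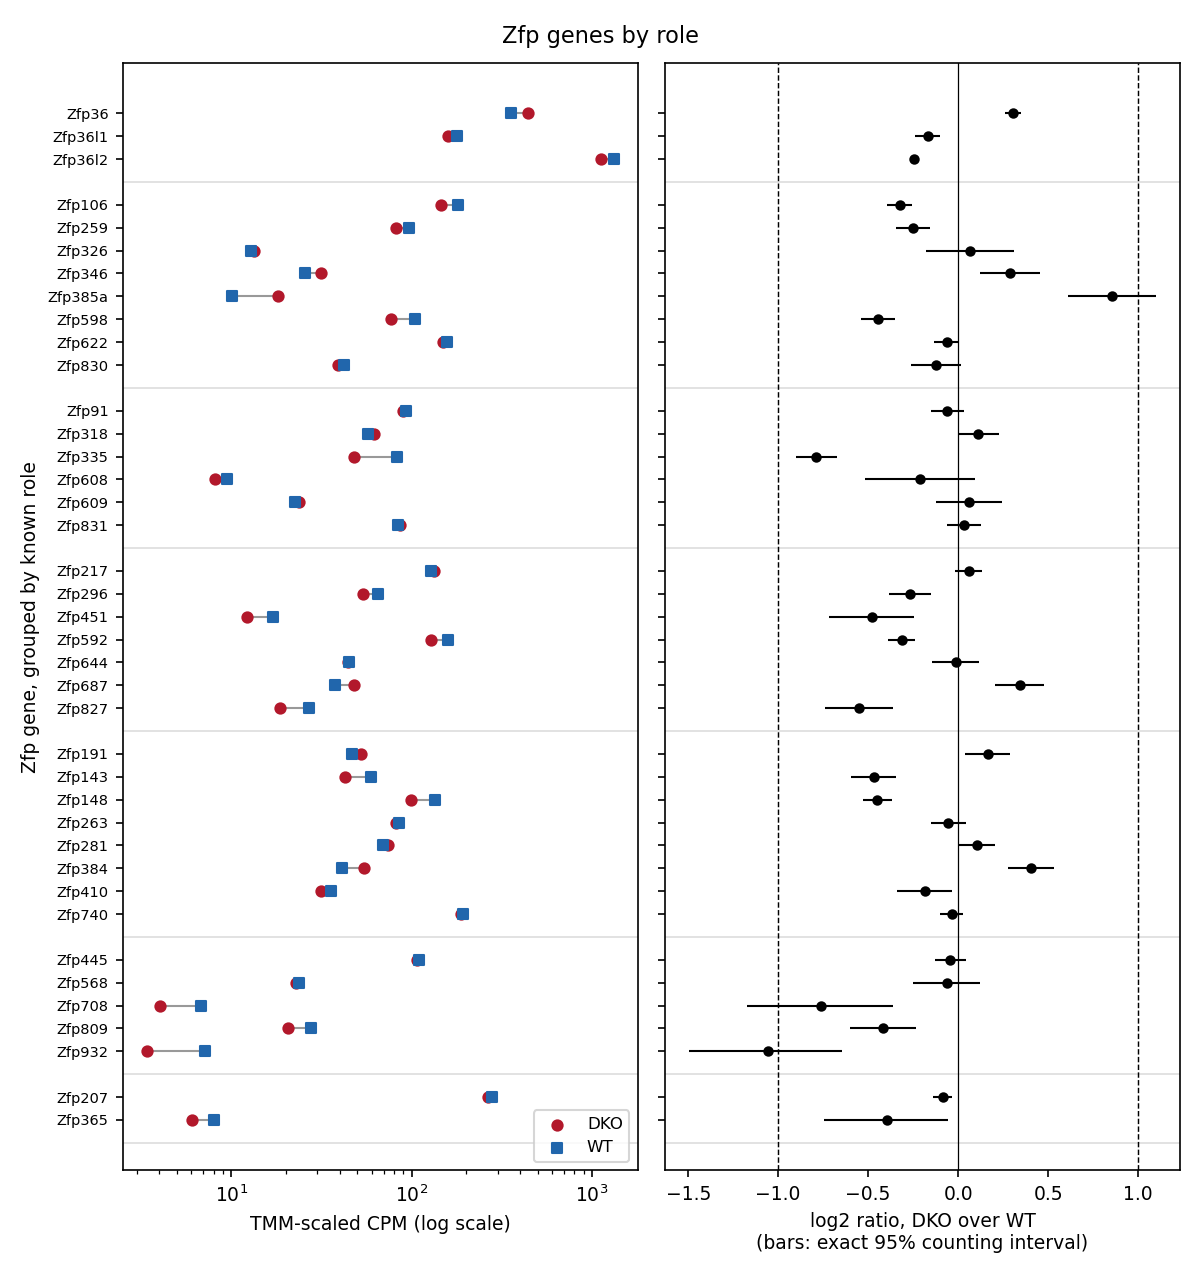
Left, TMM-scaled CPM (log axis) of Zfp genes by known role in the DKO library (circles) and the WT library (squares); right, log2 ratio of DKO over WT with exact 95% counting intervals. From top to bottom the groups are AU-rich RNA decay, RNA and ribosome, lymphocyte, chromatin complex, promoter-binding, retroelement or imprint silencing, and mitosis. Of these genes, Zfp932 alone lies past the 2-fold lines (dashed), at -1.06.

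Members known to silence retroelements or imprinted genes had ratios below 1 in 5 of 5 genes at the minimum, with 1 past 2-fold and a median log2 ratio of -0.42. Of these, Zfp708 and Zfp932 reached the minimum in the WT library only and so had to be lower in the DKO library. The intervals of Zfp445 and Zfp568 included 1. Among all genes at the same minimum, 47.6% had ratios above 1 and 1.47% were lower by the 2-fold limit. Under scaling by total counts the log2 ratio of Zfp445 was above 0 and that of Zfp568 -0.02. Zfp809, which recognises murine leukaemia provirus in embryonic cells, had 413 counts in the DKO library and 606 in the WT library, or 20.7 and 27.6 CPM. It was 1.34-fold lower (1.18 to 1.52). Zfp708 had 80 and 149 counts in the DKO and WT libraries and was 1.70-fold lower (1.29 to 2.26). Zfp932, which silences endogenous retroviruses in mouse embryonic stem cells, had 68 counts in the DKO library and 156 in the WT library, the uncertain near-copy given above. Zfp445, a guard of imprints, had 107 CPM in the DKO library and 110 CPM in the WT library. Zfp568 had 22.8 CPM in the DKO library and 23.8 CPM in the WT library. The imprint regulator Zfp57 and Zfp819 were listed at 0 in both libraries.

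The corepressor genes with which KRAB proteins act were mostly below 1. Among 21 such genes, 6 ratios lay above 1 and the median log2 ratio was -0.21. The 2-fold limit was passed upward by 1 gene and downward by 0. For all genes at the same minimum, 47.6% had ratios above 1, with a median log2 ratio of -0.02. By the 2-fold limit, 7.47% of them were higher and 1.47% lower. The median of all genes was -0.05 from 50 to 100 CPM and -0.09 at 100 CPM and over. The part of abundance in the corepressor values was not tested. Trim28 had 5881 counts in the DKO library and 8166 in the WT library, or 294 and 372 CPM, a log2 ratio of -0.34. Setdb1 had 48.0 and 43.2 CPM in the DKO and WT libraries, a log2 ratio of 0.15. Uhrf1, a DNA methylation factor that cycling cells induce, was the higher gene, with 39.8 CPM in the DKO library and 19.8 CPM in the WT library, 2.01-fold. Cycling markers were higher in the same library, as given above, and their part in this value was not tested. Next were Cbx1, a heterochromatin protein gene, and Morc2a, with log2 ratios of -0.55 and -0.49.

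A KRAB box was found in 143 of the 263 members for which a coding sequence was found. KRAB members had fewer reads than the others, with a median of 15.2 CPM against 37.3 CPM at median transcript lengths of 3391 and 3632 bases, and had more DNA-binding fingers of the C2H2 type, with a median of 12 against 7. Their transcripts had a lower GC content, with a median of 41.97% against 51.1%. Of the 143 KRAB members, 4 (2.80%) were higher and 6 (4.20%) lower, and of the 120 others 3 (2.5%) and 3 (2.5%). Among all genes at the same minimum, 7.47% were higher and 1.47% lower. The median log2 ratio was 0.04 with a KRAB box and -0.10 without one, and it was -0.06 and -0.10 after the trend of ratio with abundance was subtracted. KRAB members had the higher median in each abundance range except the lowest. Under 10 CPM the medians were 0.03 for 45 KRAB members and 0.09 for 15 others. From 10 to 20 CPM they were 0.09 for 43 and 0.02 for 18, and from 20 to 50 CPM 0.05 for 46 and -0.12 for 51. From 50 to 100 CPM they were -0.01 for 8 and -0.26 for 23, and at 100 CPM and over -0.04 for 1 and -0.15 for 13. The number of C2H2 fingers had a Spearman correlation of 0.10 with the ratio over 263 members, and transcript GC content one of -0.09. These correlations are descriptions over genes of the same 2 libraries.

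**Figure D4:**
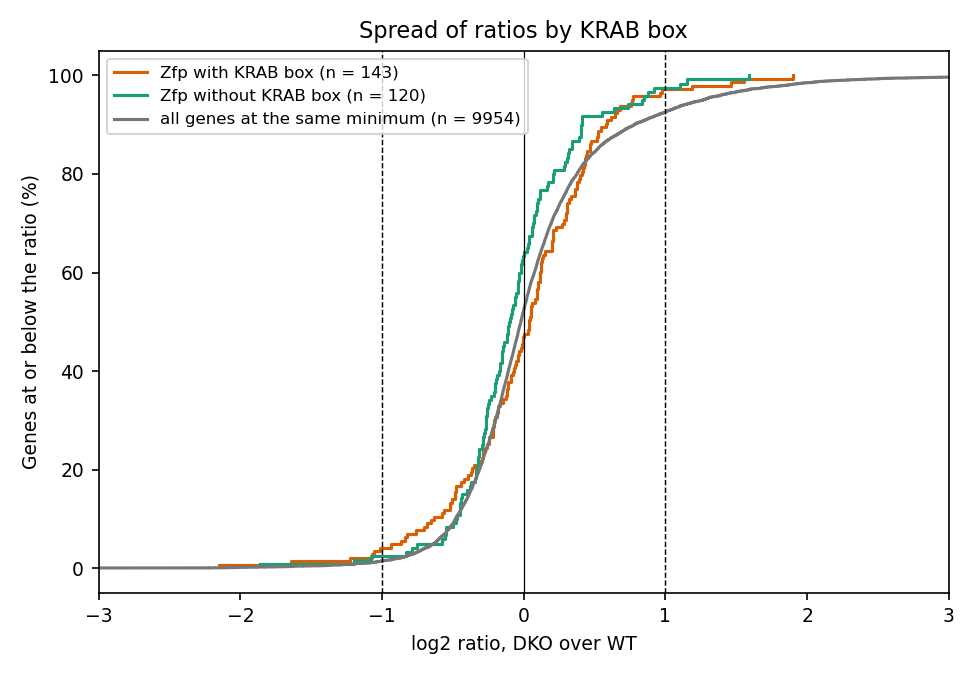
Share of genes at or below each log2 ratio of DKO over WT for Zfp genes with a KRAB box (143), Zfp genes without one (120) and all 9954 genes at the same minimum; dashed lines mark 2-fold. The curves cross 50% at 0.04, -0.10 and -0.02.

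Neighbouring members had mixed ratios. In RefSeq gene order, 111 members lay in 35 rows of at least 2 neighbours, and 6 rows held 4 or more, with 43 members. In the row of 12 from Zfp790 to Zfp146, log2 ratios ran from -1.08 (Zfp420) to 0.97 (Zfp14), with 4 above 0. The ZFP143 motif stood in the promoters of both of these extremes, printed above. In the row of 10 from Zfp595 to Zfp748, 7 ratios lay above 0, from -0.68 (Zfp58) to 0.47 (Zfp87), and 0 were past 2-fold. The adjacent near-copies Zfp874a and Zfp874b had log2 ratios of -0.19 and 0.47. Zfp874a had 547 counts in the DKO library and 684 in the WT library, and Zfp874b 500 in the DKO library and 397 in the WT library. Their promoter windows are printed above, and 83.7% and 85.8% of their 50-base stretches were unique.

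Shorter rows were mixed as well. From Zfp709 to Zfp961, a row of 4, Zfp882 had 213 counts in the DKO library and 414 in the WT library (log2 ratio -0.82), next to Zfp617 at 1.56. Of the 5 genes from Zfp677 to Zfp52, 4 ratios lay above 0, from -0.20 (Zfp51) to 0.96 (Zfp52). Ratios of the 5 genes from Zfp560 to Zfp846 ran from -0.01 (Zfp266) to 0.76 (Zfp560). Of the 7 genes from Zfp398 to Zfp746, 2 ratios lay above 0, from -0.52 (Zfp212) to 0.21 (Zfp282). Scaling by total counts or upper-quartile factors moved Zfp266 and Zfp398, both near 0, to positive ratios.

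**Figure D5:**
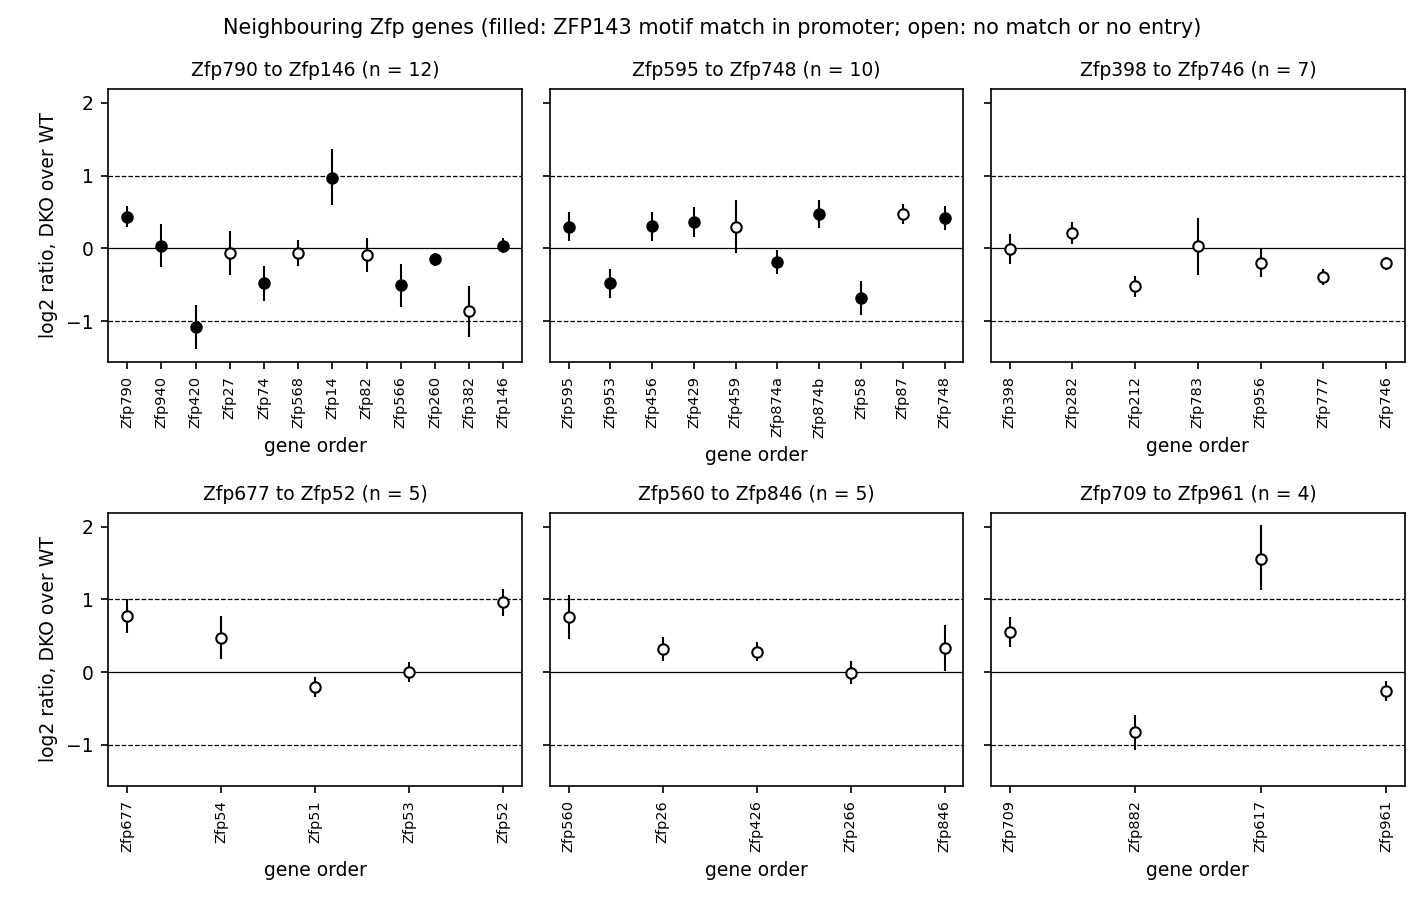
Log2 ratio of DKO over WT with exact 95% counting intervals for 6 rows of neighbouring Zfp genes, in gene order; filled points have a ZFP143 motif match in the promoter. Filled points occur in the rows of 12 and 10, on both sides of 0, and the dashed lines mark 2-fold.

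Other zinc finger families are set beside the Zfp genes. Of 47 Zbtb, Zscan and Zkscan genes at the same minimum, 2 were higher and 0 lower, with a median log2 ratio of -0.01. Families were set by the symbol in the files. Members now named Zbtb14 (Zfp161), Zbtb18 (Zfp238), Zbtb21 (Zfp295), Zkscan7 (Zfp167), Zkscan8 (Zfp192), Zscan26 (Zfp187) and Zscan25 (Zfp498) thus count as Zfp genes. Of 16 Zc3h genes, which like Zfp36 have CCCH fingers, 1 was higher and 0 lower, with a median of -0.06. Of 10 Klf genes, 2 were higher and 0 lower, with a median of 0.45. Among all genes at the same minimum, 7.47% were higher and 1.47% lower, with a median of -0.02. The differences between these families were not tested.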

How the data were processed

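RNA of 1 DKO and 1 WT library was compared. For every gene the authors deposited a raw read count, a whole number. Per the submitters' processing notes, the tools were HTSeq, TopHat2 2.0.8b and bcl2fastq and the build was mm9. The sources used here name neither the annotation nor the strand setting. In each file 5 rows name no gene and were left out: alignments that were not unique held 64.8% (DKO) and 66.4% (WT) of all counts in the file, reads outside genes 4.45% and 4.89%, and ambiguous reads 0.212% and 0.209%.

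Counts were scaled with TMM factors (edgeR 4.0.16, R 4.3.3; 1.02 for DKO, 0.983 for WT), log2 ratios used a prior count of 0.5, and intervals came from scipy 1.17.1. No model could be fitted with 1 library per genotype. Calls need a 2-fold ratio and an interval that leaves out 1. PCR copies cannot be removed here, so intervals and limits cover counting error only. The calls were tested on simulated data that held counting error only. That run could not check differences between mice or between libraries.

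KRAB boxes were found with a profile (pyhmmer 0.12.3, E-value limit 0.0001, built from 164 windows of 42 residues) in coding sequences translated from GENCODE M21 transcripts, in place of a RefSeq protein table. Uniqueness is the share of a transcript's 50-base stretches in no gene that shares no exon with it. All 265 symbols matched RefSeq, 14 of them as older symbols. This reference is GRCm38, whereas the counts were made on mm9. Its coordinates serve promoters and gene order, and exons of GENCODE M21 serve the overlaps. The T-box, SMAD and YY1 motifs were also searched, and the YY1 motif was in 1.82% of member promoters and 2.08% of those of genes at the minimum.

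Named genes were every member past 2-fold, the 10 highest and 10 lowest ratios, the 10 most abundant members, members of role lists, those nearest the minimum and rows of 4 or more neighbours, and for partner lists those past 2-fold and the 3 largest ratios; not each is printed. One marker gene is not reported here and was left out of its list. Members, lists and motifs were chosen with earlier results of these data known. Alternatives were other scalings (DESeq2 1.42.0 size factors among them), minimums, fold limits and prior counts, and subtraction of a lowess trend on abundance (statsmodels 0.14.6).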

Additional observations from a re-analysis of the deposited data

How the results depend on the processing

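No paired analysis was possible because each genotype has 1 library. The limits are low counts, near-copies, and the lack of replicates, and causes of the changes below were not tested. DESeq2 size factors left all 16 calls in place, and total counts and upper-quartile factors each kept 15, lost Zfp825 and added 2 (Zfp14, Zfp52) and 1 (Zfp14). A minimum mean of 5 CPM over both libraries kept 14. With at least 10 CPM in either library the members higher and lower were 4 and 4, by construction on fewer genes (217), against 5.38% and 1.03% of 8937 genes. With no filter they were 25 and 22 of 327, against 14.5% and 5.07% of 13678 genes. After the abundance trend was subtracted they were 3 and 17, against 5.45% and 2.74% of all genes, with 12 of the 16 calls kept and 8 added. A 1.5-fold limit gave 23 and 22, against 13.3% and 6.31% of all genes, and a 4-fold limit 0 and 1.

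The median log2 ratio of members was 0.0102 with total counts, -0.0102 with upper-quartile factors, -0.0138 with no filter and -0.0915 with the trend subtracted. With a KRAB box it was 0.0855, 0.0651, 0.0544 and -0.0636 in that order, 0.0479 with a mean of 5 CPM and 0.0682 with 10 CPM. Without one it was -0.0533, -0.0737 and -0.0867 in the first 3 and -0.1106 with 10 CPM. Leaving out the 16 members with under 80% unique stretches, chosen after seeing the data, left 5 higher and 6 lower. No called member turned its sign under another scaling, prior count or the trend.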
